A study of Mus musculus with 6 samples.

Results

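Iron uptake, storage and export genes were examined in brain samples of wild-type (WT) and Qk-KO mice. The samples are described as oligodendrocytes, which wrap axons in myelin, taken without culture. Markers of other cell types were also present, as given below. The set holds 10 genes of 46983 annotated features in the deposited table, chosen by symbol as iron handling genes, and all 10 were found once and had enough signal to be tested. Per the labels, the Qk-KO animals carry Plp-CreERT2, a Cre recombinase driven by the Plp promoter and switched on by tamoxifen, and a Qk gene flanked by loxP sites. WT controls (3 libraries) and Qk-KO (3 libraries) received tamoxifen at 8 weeks of age, and brains were collected 4 days later; all were FvB/C57BL6 hybrid mice. Whether the controls carry Cre or the floxed gene, and whether each library is 1 mouse, is not given in the sources used here, so the p-values speak only of the spread among the 6 libraries, which may be technical. Values are log2 values per gene and library as the authors deposited them, scaled for depth and shrunken for genes with few reads. Changes are Qk-KO minus WT with the standard error (SE) of limma, a linear model fitted to all features. A gene was called when its Benjamini-Hochberg adjusted p over 15153 tested features was under 0.05.

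Iron reaches cells bound to transferrin, which enters with the transferrin receptor; in the endosome the iron is reduced and passed to the cytosol. Ferritin, a shell of heavy and light chains, stores it, and ferroportin exports it with the help of ferroxidases. Oligodendrocytes are the cells of the brain that stain most strongly for iron, which enzymes of myelin lipid synthesis use, and they make transferrin themselves. When iron is scarce, iron regulatory proteins bind hairpins called iron-responsive elements: in a 5′ untranslated region (UTR) they block translation, and in the 3′ UTR of the transferrin receptor they protect the mRNA.

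Letters that can form such hairpins were found in 4 of the genes, so their sequences are shown first. A C, any 5 bases, the loop CAGTGN and 5 bases that can all pair with the first 5 were searched on the transcript strand in the UTRs of GENCODE M21 transcripts. They were found in 0.136% of 20561 genes with a 5′ UTR and in 0.607% of 20937 genes with a 3′ UTR. Among the 10 genes, the 5′ UTRs of Fth1, Ftl1 and Slc40a1 and the 3′ UTR of Tfrc held them. A match describes letters and is no measured site. The search misses hairpins whose 5 pairs are not all complete, so a UTR without a match, or Tfrc beyond its matches, may hold more. Each sequence is given 5′ to 3′, with the 6-base loop in capitals.
Fth1: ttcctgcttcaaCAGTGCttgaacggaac
Ftl1: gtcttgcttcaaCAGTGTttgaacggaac
Slc40a1: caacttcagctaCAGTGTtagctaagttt
Tfrc site 1: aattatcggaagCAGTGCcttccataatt
Tfrc site 2: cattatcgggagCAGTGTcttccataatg
Tfrc site 3: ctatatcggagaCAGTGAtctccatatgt
Tfrc site 4: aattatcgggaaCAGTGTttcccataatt
The windows of Fth1 (chr19:9982732-9982760, plus strand, mm10) and Ftl1 (chr7:45459779-45459807, minus strand) matched at 26 of 29 bases. The window of Slc40a1 (chr1:45925465-45925493, minus strand) matched each of them at 13 of 29. The 4 Tfrc windows lie within 1 stretch of its 3′ UTR on the plus strand, at chr16:32631219-32631247, chr16:32631598-32631626, chr16:32631663-32631691 and chr16:32631710-32631738.

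The libraries differed in type. A total of 59.8% to 64.8% of the signal of the WT libraries and of Qk-KO replicate 1 was in 4 ribosomal RNA features, against 2.23% and 1.88% in Qk-KO replicates 2 and 3. Estimated reads outside these features were 8.7 to 13.1 M reads in the former and 77.1 and 70.0 M reads in the latter. Results are therefore also given for Qk-KO replicate 1 alone against WT, and for replicates 2 and 3 against WT. The fit with Qk-KO replicate 1 alone holds no spread among Qk-KO libraries. Its adjusted p-values and calls rest on the spread among WT libraries and are no replication. With library type as a second term, the change equals that of replicate 1 alone by design. Only replicates 2 and 3 differ in type. Qk, the deleted gene, had log2 values of 15.41, 15.67 and 15.31 in WT, against 16.10, 15.62 and 15.30 in Qk-KO, a change of 0.21 ± 0.25 (limma adjusted p = 0.567). It was not lower in the Qk-KO libraries. A value for the whole gene does not separate its floxed exons from the rest, so it checks nothing about the labels. Summed mature oligodendrocyte markers were 23189 to 28245 in WT and 29450 to 36871 in Qk-KO, scaled to a non-ribosomal total of 1000000 as all marker sums. In WT, astrocyte markers summed to 5066 to 5927 and choroid plexus markers to 2719 to 3952, so the libraries are a mixture of cell types. No marker of any cell type list was at 0.

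In Qk-KO, 5 of the 10 genes were lower and 1 was higher, against 28.6% of all tested features called in either direction. Those that fell were Heph, Steap3, Slc40a1, Cp and Tfrc, that is, the exporter, both ferroxidases, the endosomal reductase and the transferrin receptor, of which Slc40a1, Cp and Tfrc turned positive with scaling by library size, as described below. The gene that rose was Ftl1, ferritin light chain. The median change of the 10 genes was -0.27, beside 0.03 over all features tested. In 9 of the 10 genes the WT and Qk-KO libraries did not overlap, 5 of them lower and 4 higher in Qk-KO, against 46.3% of all features. In Qk-KO replicate 1 alone against WT, each of the called genes above kept its direction. Replicates 2 and 3 against WT called 5 lower and 3 higher (background 37.2%). The authors' deposited table called 5 lower and 3 higher (32.9%). In such samples of many cells, fewer cells of a type and less RNA per cell cannot be told apart.

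**Figure D1:**
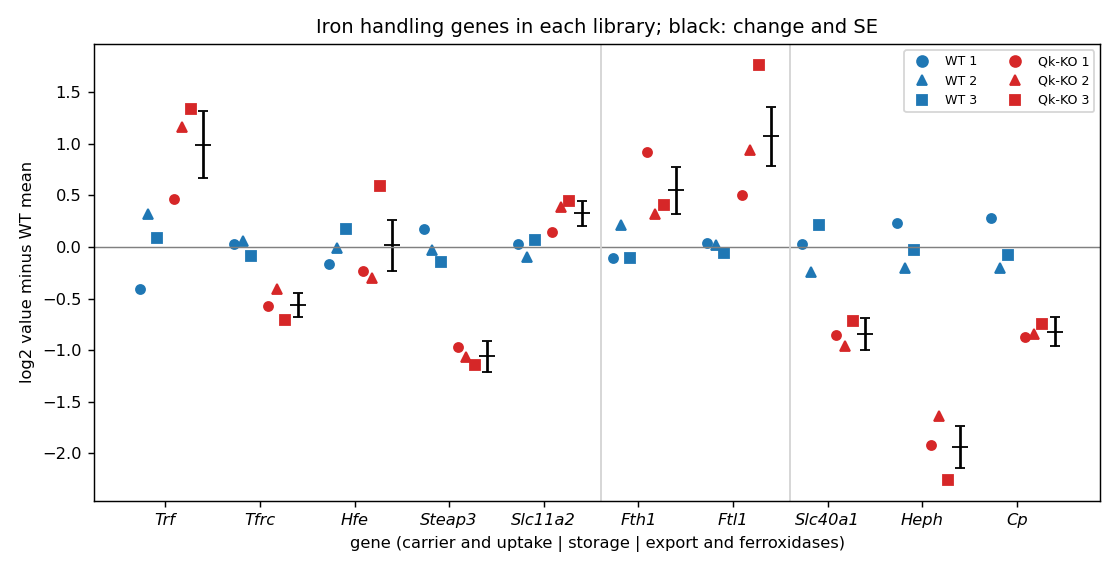
Log2 value minus the WT mean (y axis) for the 10 genes (x axis, by role), 1 point per library, WT blue and Qk-KO red; black bars give the change and its SE. The Qk-KO points of Heph lie between -2.26 and -1.64, those of Steap3, Slc40a1, Cp and Tfrc lie below every WT point in the authors' scaling (Slc40a1, Cp and Tfrc turn positive with library size scaling), and only those of Hfe overlap the WT points.

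Levels were compared between genes as normalized counts per kilobase of the longest annotated mRNA that carries a CCDS (consensus coding sequence) tag. In WT, Fth1 was at 25462 ± 3402 (SD, n = 3), Trf at 23917 ± 5778 and Ftl1 at 5465 ± 190. The libraries of Fth1 and Trf overlapped, so neither was above the other beyond the spread. All other genes were at least an order of magnitude lower: Tfrc at 542 ± 29.3, Cp at 361 ± 64.7, Slc40a1 at 201 ± 31.7 and Slc11a2 at 191 ± 11.2. Hfe (66.9 ± 7.71), Heph (47.2 ± 7.14) and Steap3 (36.8 ± 4.11) were lowest. Slc40a1 and Slc11a2 overlapped in WT, as did Heph and Steap3. In Qk-KO, Trf was at 48064 ± 13974 and Fth1 at 37701 ± 8862, again overlapping, and Ftl1 at 12279 ± 5630. Heph had the lowest level there, at 12.4 ± 2.64 against 17.6 ± 1.01 for Steap3, and their libraries did not overlap. The length used matters for the order: per kilobase of all annotated exons, Trf was at 18520 and Fth1 at 10970 in WT, without overlap, and Slc11a2 at 132.7 was above Slc40a1 at 75.3.

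**Figure D2:**
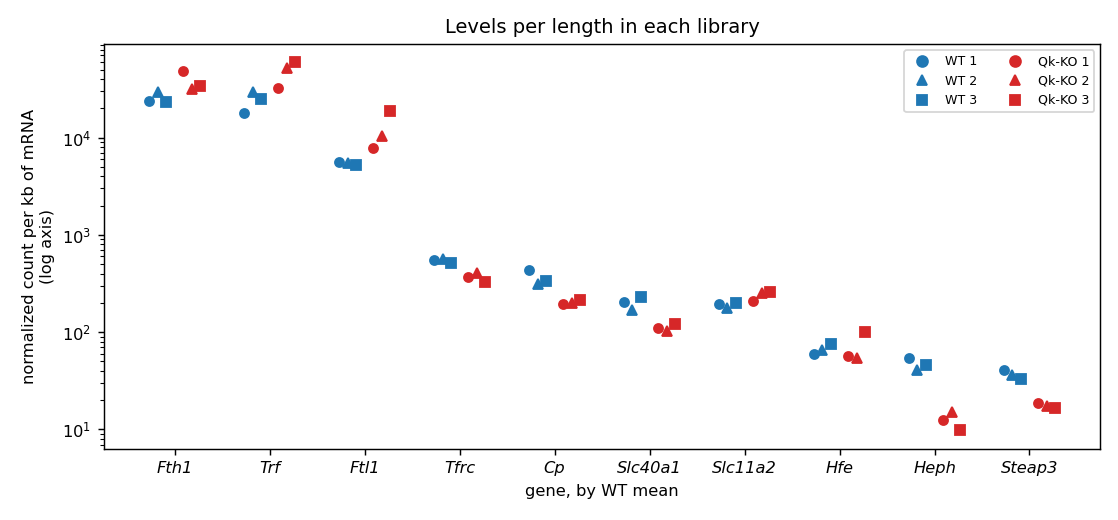
Normalized count per kilobase of mRNA (y axis, log scale) for the 10 genes ordered by WT mean (x axis), 1 point per library, WT blue and Qk-KO red. Fth1, Trf and Ftl1 are at 5251 or more in every library, with the other 7 genes far below them in both groups.

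Trf encodes transferrin, the iron carrier (chromosome 9, 103204001 to 103230444, minus strand, mm10). WT replicates 1 to 3 had log2 values of 15.48, 16.19 and 15.97, and Qk-KO replicates 1 to 3 had 16.35, 17.04 and 17.22; values are given in this order throughout. Each Qk-KO library was above each WT library, but the gap between WT replicate 2 and Qk-KO replicate 1 was small. The change of 0.99 ± 0.32 missed the threshold (limma adjusted p = 0.0529), a 1.99-fold difference of means. It was 0.47 in Qk-KO replicate 1 alone against WT (adjusted p = 0.363) and 1.25 in replicates 2 and 3 (0.0104). The authors' deposited table gives 1.13 ± 0.29 with an adjusted p of 0.000724. Leaving out WT replicate 1 gave 0.79 (limma adjusted p = 0.185). The gene model Gm20425 shares 2108 exon bases with Trf on the same strand, and reads there cannot be told apart; it rose by 1.38 ± 0.30 (limma adjusted p = 0.0119; 0.85 and 0.102 in Qk-KO replicate 1 alone), and Trf summed with it changed by 1.01 (0.0518).

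Mature oligodendrocytes and the choroid plexus are both known to express Trf. Of 10 mature oligodendrocyte markers 7 rose and none fell in limma. All 7 choroid plexus markers had a change below 0 and 5 fell, with a summed level of 2719 to 3952 in WT and 1126 to 2593 in Qk-KO. The part of the choroid plexus in the Trf values was not tested.

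Tfrc, the transferrin receptor (chromosome 16, 32608920 to 32632794, plus strand), fell. Its log2 values were 11.40, 11.43 and 11.28 in WT, against 10.80, 10.96 and 10.66 in Qk-KO. All Qk-KO libraries lay below all WT libraries, with a change of -0.56 ± 0.12, or 1.48-fold lower (limma adjusted p = 0.00997). The change was -0.57 in Qk-KO replicate 1 alone and -0.56 in replicates 2 and 3 (0.012). With library type as a second term, which gives the change of replicate 1 by design, the adjusted p was 0.0508. Endothelial cells, which take up iron at the blood-brain barrier through this receptor, had markers that fell in the same libraries: all 10 of 10 were lower, with a summed level of 1303 to 1953 in WT and 761 to 933 in Qk-KO. Tfrc minus the mean of these markers within each library was -0.17, 0.33 and -0.11 in WT, against 0.51, 0.47 and 0.19 in Qk-KO (two-sided exact permutation p = 0.20, where 3 against 3 allows no p under 0.10; adjusted over 6 such within-library differences 0.30). Library scaling cancels out of such log2 differences. The part of endothelial cells in the fall of Tfrc was not tested beyond this difference.

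Steap3, the ferrireductase of transferrin endosomes (chromosome 1, 120190757 to 120272705, minus strand), had log2 values of 7.73, 7.53 and 7.42 in WT. In Qk-KO they were 6.59, 6.50 and 6.42. The groups were well apart, and the change was -1.06 ± 0.15, or 2.09-fold lower (limma adjusted p = 0.00204). The authors' deposited table gives a larger change, -1.69 ± 0.28. It is a weakly expressed gene with about 59 to 107 reads in each of the 4 shallower libraries, where the deposited log2 values are pulled toward the mean. The change was -0.97 in Qk-KO replicate 1 alone against WT and -1.10 in replicates 2 and 3 (limma adjusted p = 0.00296).

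Slc11a2 and Hfe did not pass the test. Slc11a2 encodes DMT1, the transporter that moves ferrous iron out of the endosome (chromosome 15, 100387898 to 100425072, minus strand). It had log2 values of 9.75, 9.62 and 9.78 in WT, against 9.86, 10.11 and 10.16 in Qk-KO. The groups did not overlap, but the change of 0.33 ± 0.12 had a limma adjusted p of 0.0811. It was 0.42 in Qk-KO replicates 2 and 3 against WT (0.0212) and 0.14 in replicate 1 alone (0.586). Hfe encodes a membrane protein that binds the transferrin receptor and takes part in iron sensing (chromosome 13, 23702034 to 23710854, minus strand). Its log2 values were 7.73, 7.89 and 8.07 in WT, against 7.66, 7.60 and 8.48 in Qk-KO, and only Qk-KO replicate 3 was above WT. The change was 0.02 ± 0.25 (limma adjusted p = 0.963), turning to -0.27 without Qk-KO replicate 3 (0.299) and to -0.06 without WT replicate 1 (0.897).

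The ferritin genes were higher in every Qk-KO library, in different orders. Ftl1, the light chain that forms the iron core (chromosome 7, 45457944 to 45459884, minus strand), had log2 values of 12.41, 12.39 and 12.31 in WT, against 12.88, 13.31 and 14.14 in Qk-KO. The WT libraries were close together while the Qk-KO libraries spanned more than 1 log2 unit, with replicate 3 highest. Ftl1 rose by 1.07 ± 0.28, or 2.10-fold (limma adjusted p = 0.025). It was 0.51 in Qk-KO replicate 1 alone against WT and 1.35 in replicates 2 and 3 (0.00426). With library type as a second term, which gives the change of replicate 1 by design, the adjusted p was 0.283. The call was lost without WT replicate 1, 2 or 3 (0.0763, 0.0701 and 0.0852) and without Qk-KO replicate 2 (0.0582), with changes from 1.04 to 1.14.

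Fth1, the heavy chain that oxidizes iron as it enters the shell (chromosome 19, 9980598 to 9985098, plus strand), had log2 values of 15.10, 15.42 and 15.10 in WT. In Qk-KO they were 16.13, 15.53 and 15.62. Here Qk-KO replicate 1 was highest, and replicate 2 lay just above WT replicate 2. The change of 0.55 ± 0.23 did not pass (limma adjusted p = 0.108). It was 0.92 in Qk-KO replicate 1 alone and 0.37 in replicates 2 and 3 (0.141). The authors' deposited table gives 0.65 ± 0.23 with an adjusted p of 0.0194. The ratio of heavy to light chain mRNA within a library varied among Qk-KO libraries: the log2 difference Fth1 minus Ftl1 was 2.69, 3.04 and 2.79 in WT, against 3.25, 2.22 and 1.48 in Qk-KO. The groups overlapped (exact permutation p = 0.40, adjusted 0.40).

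Ferritin genes have near-identical copies, so their reads may be split unevenly. Features that match the Ftl1 coding sequence at 90% identity or more held 9.07% to 9.94% of the summed Ftl1 signal in WT and 7.93% to 8.18% in Qk-KO. The named copy Ftl2-ps, 98.7% identical, changed by 0.78 (limma adjusted p = 0.0867), and the sum of Ftl1 and all such copies changed by 1.05 (0.0273). The copies Gm10116 (99.6% identical) and Gm15590 (99.1%) changed by 0.87 and 0.64 without passing; they were looked up after the values were seen. Gm22133, an annotated miRNA that shares 109 exon bases with Ftl1, was at 10.59 in Qk-KO replicate 3 and between 2.14 and 3.57 in the other libraries. No copy of Fth1 reached the tested level.

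Microglia, the resident phagocytes of the brain, are known to express both ferritin chains strongly, and their markers were highest in Qk-KO replicate 3. Of the 10 markers 5 rose, 9 had a change above 0 and the summed level was 350 to 575 in WT. It was 788, 978 and 3590 in Qk-KO replicates 1, 2 and 3. Ftl1 and Trf had the same order and Fth1 did not. Replicates 2 and 3 are also the libraries with little ribosomal signal, so library type and this order cannot be told apart. The part of microglia in the ferritin values was not tested. Without Qk-KO replicate 3, Ftl1 changed by 0.72 (limma adjusted p = 0.0121) and Fth1 by 0.62 (0.123). Tfrc and Fth1, whose proteins are known to be regulated in opposite directions by iron, were also compared within libraries as mRNA. A block of translation through the 5′ UTR of Fth1 need not show in its mRNA level, so the difference is no measure of iron. Tfrc minus Fth1 was -3.70, -3.99 and -3.82 in WT. It was -5.33, -4.57 and -4.96 in Qk-KO, without overlap (exact permutation p = 0.10, the smallest that 3 against 3 allows; adjusted 0.20).

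**Figure D3:**
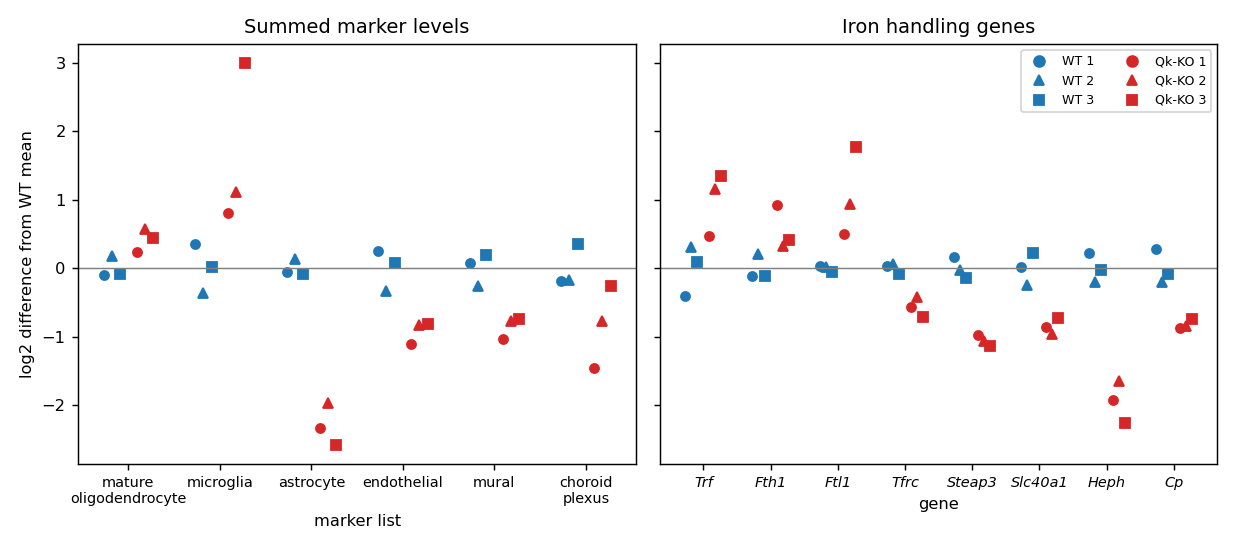
Log2 difference from the WT mean (y axis) of summed marker levels for 6 cell types (left) and of 8 iron genes (right), 1 point per library. Microglia markers are highest in Qk-KO replicate 3, as are Ftl1 and Trf. Astrocyte, endothelial, mural and choroid plexus sums are lower in each Qk-KO library than in any WT library.

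All 3 genes of iron export fell, against 14.8% of all features called lower, though Slc40a1 and Cp turned positive with library size scaling. Heph encodes hephaestin, a membrane-bound copper ferroxidase that is expressed by oligodendrocytes (chromosome X, 96455359 to 96574485, plus strand). It had log2 values of 8.02, 7.59 and 7.77 in WT, against 5.88, 6.16 and 5.54 in Qk-KO, so that the nearest libraries of the groups were more than 1 log2 unit apart. The change was -1.94 ± 0.21, or 3.83-fold lower (limma adjusted p = 0.000543), the largest among the 10 genes. It was -1.92 in Qk-KO replicate 1 alone and -1.95 in replicates 2 and 3 (0.00124), and leaving out 1 library gave values from -2.09 to -1.78. The authors' deposited table gives -2.87 ± 0.37. About 93 to 131 reads in WT and 36 in Qk-KO replicate 1 stand behind these values. Summed astrocyte, endothelial and choroid plexus markers were lower in each Qk-KO library than in any WT library. The part of any cell type in the fall of Heph was not tested.

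Cp encodes ceruloplasmin, the copper ferroxidase that astrocytes carry on their membrane (chromosome 3, 19957054 to 20009145, plus strand). Its log2 values were 10.93, 10.45 and 10.57 in WT, against 9.78, 9.81 and 9.91 in Qk-KO, with the Qk-KO libraries close together. Cp fell by 0.82 ± 0.14, or 1.77-fold (limma adjusted p = 0.00478), with -0.87 in Qk-KO replicate 1 alone. Cp shares 108 exon bases with Hps3 on the opposite strand, which changed by 0.42 (limma adjusted p = 0.0375; not called without any 1 library other than Qk-KO replicate 1, 0.0719 to 0.13). Of 10 astrocyte markers 9 fell, with a median of -2.51 and a summed level of 5066 to 5927 in WT and 907 to 1386 in Qk-KO. Gfap, chosen after its values were seen, had a change of 0.81 and is the marker that did not fall. Cp minus the mean of these markers was -1.30, -1.97 and -1.56 in WT, against -0.30, -0.57 and 0.05 in Qk-KO. These differences did not overlap (exact permutation p = 0.10, the smallest possible; adjusted 0.20). The part of astrocytes in the falls of Cp and Steap3 was not tested.

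Slc40a1 encodes ferroportin, the only known iron exporter of mammalian cells (chromosome 1, 45908068 to 45926523, minus strand). It had log2 values of 9.42, 9.15 and 9.61 in WT, against 8.54, 8.43 and 8.67 in Qk-KO, without overlap. It fell by 0.84 ± 0.15, or 1.79-fold (limma adjusted p = 0.0055), and by 0.85 in Qk-KO replicate 1 alone. Microglia, which also express ferroportin, had markers that moved the other way. Slc40a1 minus the mean of the microglia markers was -0.06, 0.25 and 0.49 in WT, against -1.41, -1.61 and -3.08 in Qk-KO (exact permutation p = 0.10, the smallest possible; adjusted 0.20). Endothelial markers, as given above, and mural markers fell in the same libraries; 5 of 8 mural markers fell, with a summed level of 833 to 1136 in WT and 488 to 600 in Qk-KO. The part of vascular cells in the fall of Slc40a1 was not tested.

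**Figure D4:**
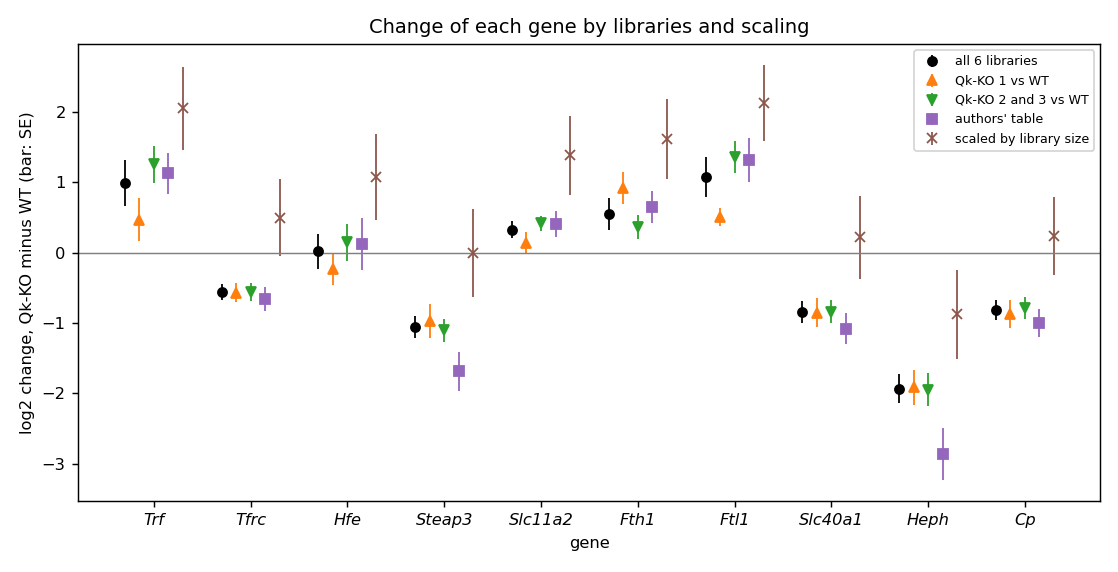
Log2 change of each of the 10 genes (y axis, with its SE) from all 6 libraries, from Qk-KO replicate 1 alone, from replicates 2 and 3, from the authors' table and after scaling by library size. The changes of Tfrc, Slc40a1, Heph and Cp barely differ between the 2 kinds of Qk-KO library, while Trf and Ftl1 are higher in replicates 2 and 3 and Fth1 in replicate 1.

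Every direction here is relative to the median feature as the authors scaled it. With library size as the scale, ribosomal reads included, the median change over all features became 1.09, and none of the 10 genes was called lower. The changes were then 0.50 for Tfrc, 0.21 for Slc40a1, 0.24 for Cp, -0.00 for Steap3 and -0.88 for Heph, all below that median and none called. Scaling by the total without the ribosomal features kept the 5 falls and added Trf (1.03, limma adjusted p = 0.0456) and Fth1 (0.59, 0.0466) to the rises.

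Quaking is known to bind RNA at ACTAAC and ACTAAT (written as DNA), and the longest annotated 3′ UTR of each gene was searched for both on the transcript strand. ACTAAC was present in 17.7% and ACTAAT in 21.6% of 21004 genes, whose 3′ UTRs had a median length of 953 bases. Of the 10 genes, Slc40a1 held 3 copies of ACTAAC in 1338 bases, of which 2 overlap, and Cp held 1 in 1073 bases. ACTAAC was thus in 2 of the 10 genes, beside 17.7% of all genes. Its windows are shown with the motif in capitals. A match describes letters, and binding by quaking was not tested.
Slc40a1 site 1: agggctaggagcACTAACtaaccatcgcca
Slc40a1 site 2: tcatcagccatcACTAACtattttggtaaa
Cp: acccttttcaatACTAACtttaagtattgg
These lie at chr1:45909258-45909287 and chr1:45908601-45908630 (minus strand) and chr3:20007190-20007219 (plus strand, mm10). ACTAAT was found in Hfe (2 copies), Heph (1) and Cp (1), whose windows for it are not shown. Neither motif was in the 3′ UTRs searched of Trf, Tfrc, Steap3, Slc11a2, Fth1 or Ftl1, which run from 156 to 3261 bases. Of these genes, Tfrc and Steap3 fell as well.

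Other genes of iron, heme and copper handling were followed in 8 lists of 88 genes, of which 76 were tested. In all, 12 rose and 15 fell, or 35.5% against 28.6% of all features called, with a median change of 0.03. Qk-KO replicates 2 and 3 against WT called 18 higher and 17 lower (46.1%, background 37.2%). These shares were not tested against the background. The counts per list below stand beside the 28.6% of all features called and were not tested against it either. With scaling by library size 14 were called higher and none lower, and of the genes named below that fell, Bmp6, Steap2, Slc39a8, Slc39a14, Slc25a37, Lpcat3, Slc31a1 and Mt1 turned positive.

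Among 6 tested regulators of iron balance, 1 rose and 1 fell. Fbxl5, the iron-sensing ubiquitin ligase subunit that removes iron regulatory protein 2, had log2 values of 11.61, 11.75 and 11.40 in WT, against 12.48, 12.96 and 12.54 in Qk-KO. It rose by 1.07 ± 0.16 (limma adjusted p = 0.0025), and the groups were apart by more than 0.7. Bmp6, the signal that induces hepcidin in liver, fell by 0.92 ± 0.23 (0.0203; 0.0786 without WT replicate 3). The iron regulatory protein genes themselves, Aco1 and Ireb2, named here for their role, changed by 0.09 and -0.42 without passing (limma adjusted p = 0.592 and 0.193). In Qk-KO replicates 2 and 3 against WT Ireb2 was at -0.66 (0.0172), and in replicate 1 alone at 0.07 (0.819). Hamp, which encodes hepcidin, was below the tested level.

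Of 11 other uptake genes tested 3 fell and none rose. With library size scaling all 3 turned positive (0.02 to 0.63), below the median of 1.09 over all features. Scaling by the total without ribosomal features gave -0.99 for Steap2, -0.64 for Slc39a8 and -0.38 for Slc39a14 (limma adjusted p = 0.141 for the last). Steap2, a metalloreductase related to Steap3, had log2 values of 9.10, 8.91 and 9.40 in WT, against 8.22, 7.89 and 8.18 in Qk-KO, a fall of 1.04 ± 0.17 (limma adjusted p = 0.0034). Slc39a8 and Slc39a14, transporters of the ZIP family that carry zinc, manganese and iron, had changes of -0.68 ± 0.16 (0.0175) and -0.43 ± 0.14 (0.0499). Slc39a14 was not called without any one of WT replicates 1, 2 and 3 or Qk-KO replicates 1 and 2 (0.0768 to 0.146), and Slc39a8 lost its call when either of the first pair of WT replicates (0.0663 and 0.0568) or Qk-KO replicate 2 (0.0709) was left out. In Qk-KO replicate 1 alone neither was called (-0.63, 0.148 for Slc39a8 and -0.61, 0.0556 for Slc39a14), and with a replicate block Slc39a14 was not (0.0771). Of 4 tested chaperone and ferritin turnover genes, Herc2, a ubiquitin ligase that targets the ferritin receptor Ncoa4, rose by 0.43 ± 0.12 (0.0288). Its call was lost when any library other than Qk-KO replicate 1 was left out (0.0661 to 0.117), and Qk-KO replicate 1 alone gave 0.30 (0.188). Pcbp2, which delivers iron to ferritin, was at 11.56, 11.66 and 11.56 in WT and 11.71 in Qk-KO replicate 1, but at 10.32 and 10.27 in replicates 2 and 3 (-0.83 ± 0.35, limma adjusted p = 0.111). It passed without Qk-KO replicate 1 (-1.30, 0.000231).

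Of 14 tested genes of mitochondrial iron and iron-sulphur clusters 1 fell and none rose. The most abundant were Abcb8, a mitochondrial transporter, at 0.34 ± 0.18 (limma adjusted p = 0.18), and Isca1, an iron-sulphur assembly factor, at -0.13 ± 0.14 (0.51). Abcb8 passed without Qk-KO replicate 1 (0.54, 0.00948). The gene that fell was Slc25a37, mitoferrin 1, named after its values were seen, at 8.11, 8.12 and 9.04 in WT, against 7.76, 7.50 and 7.38 in Qk-KO. WT replicate 3 stood above the other libraries, and the change was -0.88 ± 0.26 (limma adjusted p = 0.0394), or -0.57 without that library (0.0736). The call was also lost without WT replicate 1 (0.0541), Qk-KO replicate 2 (0.109) or Qk-KO replicate 3 (0.0732), with a replicate block (0.055), and in Qk-KO replicate 1 alone (-0.66, 0.28). Red blood cells, whose precursors rely on this carrier for heme synthesis, had a summed marker level of 211, 280 and 489 in WT, against 81.2, 307 and 105 in Qk-KO; none of 5 markers was called, and their part was not tested. Of 9 heme synthesis genes 1 rose: Cpox, coproporphyrinogen oxidase, had log2 values of 11.36, 11.63 and 11.47 in WT, against 12.56, 12.17 and 12.11 in Qk-KO, a rise of 0.79 ± 0.15 (0.0069). Fech, which inserts the iron into heme, changed by 0.05 ± 0.11 (0.758).

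Of 9 tested genes of heme breakdown and transport 3 rose, Hmox1, Hmox2 and Blvra, and 1, Lrp1, fell. Hmox2, the constitutive heme oxygenase that frees iron from heme, had log2 values of 10.56, 10.91 and 10.50 in WT, against 11.42, 11.68 and 11.63 in Qk-KO, a rise of 0.92 ± 0.14 (limma adjusted p = 0.0029). The inducible Hmox1 was at 7.36, 7.13 and 7.43 in WT, against 8.11, 7.97 and 9.03 in Qk-KO, highest in the library with the highest microglia markers, a rise of 1.06 ± 0.27 (0.0231). It was not called without WT replicate 1, 2 or 3 (0.0675, 0.0777 and 0.0609), nor in Qk-KO replicate 1 alone (0.80, 0.0591). Blvra, biliverdin reductase, rose by 0.80 ± 0.17 (0.0111); in Qk-KO replicate 1 alone it was at 0.52 and not called (0.16). Lrp1, the receptor that clears heme bound to hemopexin, fell by 1.08 ± 0.15 (0.0018).

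Genes of lipid peroxide defence, which bears on iron-dependent cell death, were mixed: of 13 tested, 3 rose and 4 fell. Slc7a11, the cystine importer, had log2 values of 10.23, 10.93 and 10.65 in WT, against 8.43, 8.22 and 8.42 in Qk-KO, and fell by 2.25 ± 0.18, or 4.74-fold (limma adjusted p = 0.000183). Slc7a11 is known to be expressed by astrocytes, whose markers fell as given above; their part was not tested. Gpx4, the enzyme that reduces lipid peroxides, rose by 0.91 ± 0.17 (0.0074); in Qk-KO replicate 1 alone it was at 0.56 and not called (0.0653). Gss, glutathione synthetase, was at 9.67, 9.65 and 9.41 in WT, against 10.85, 11.15 and 11.01 in Qk-KO, a rise of 1.43 ± 0.13 (0.000261). Lpcat3, which loads polyunsaturated fatty acids into phospholipids, fell by 0.79 ± 0.13 (0.0038).

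Copper is the cofactor of hephaestin and ceruloplasmin. Of 10 copper handling genes 3 rose and 5 fell. Slc31a1, the copper importer, had log2 values of 10.02, 10.08 and 10.20 in WT, against 9.39, 9.28 and 9.46 in Qk-KO, a fall of 0.72 ± 0.11 (limma adjusted p = 0.0028). The metallothionein genes, whose products bind copper and zinc, fell: Mt2 4.01-fold (limma adjusted p = 0.000288), Mt3 3.23-fold (0.000379) and Mt1 2.03-fold (0.000567), of which Mt1 was at 0.035 with library size scaling. Metallothioneins are abundant in astrocytes, whose markers fell in the same libraries, and their part was not tested.

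**Figure D5:**
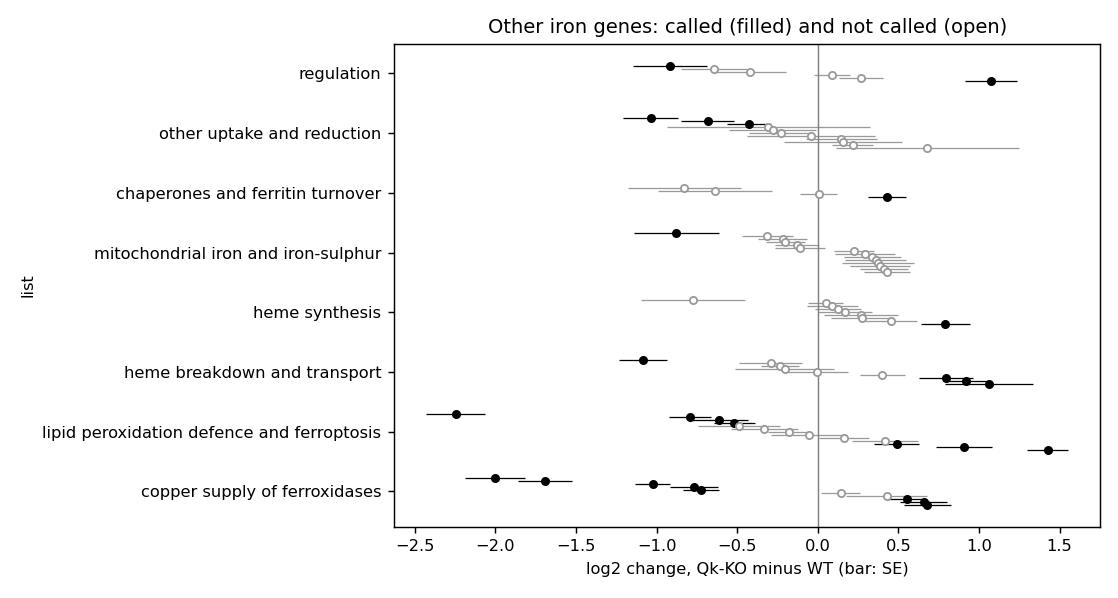
Log2 change with its SE (x axis) of each tested gene in 8 lists (y axis), filled where called. Called genes lie on both sides of 0 in 4 of the 8 lists (in the authors' scaling); Slc7a11 at -2.25 is farthest to the left and Gss at 1.43 farthest to the right.

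The features with the most similar pattern across the 6 libraries were found by Pearson's r among features whose mean normalized count reached 500. For Trf they included Cd99l2 (r = 0.997) and the histidyl-tRNA synthetase gene Hars (0.997), with changes of 0.29 and 0.78. For Heph they were Nebl (0.997), Rhoq (0.997) and Pigm (0.996), with changes of -1.33, -0.56 and -0.65. These are descriptions over 6 libraries that share the split by genotype and by ribosomal content, chosen from the highest of 6546 and 6547 features.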

How the data were processed

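RNA-seq of 6 libraries was analysed from 1 deposited table. FastQC, featureCounts, DESeq2, TopHat2 2.0.14 and the build mm10 are named in the submitters' processing notes. Neither annotation release nor strandedness is given in the sources used here. The per-library values are log2 values deposited by the authors, which behave as regularized log2 values. A signal, the mean over all libraries of counts divided by size factors, was deposited as well. The deposited comparison holds a log2 fold change, its error, a Wald score, and p-values, per the file headers. No counts were used.

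Features whose mean normalized count reached 20 (8.9 to 12.3 reads in the 4 shallower libraries) were tested with limma 3.58.1 (R 4.3.3), mean-variance trend, genotype as the only term, and the fit was tested on simulated data. Size factors and read totals were estimated from steps in the mean normalized counts, and back-transformed values gave levels and sums. Of 46983 feature IDs, 46488 matched GENCODE M21 without version. Members, lists, naming rule and tests were chosen with earlier results of these data known. Named are the 10 genes, Qk, per other list up to 4 called genes with the smallest adjusted p (where fewer than 2 were called, its 2 most abundant genes), tested ferritin copies, and the 3 most similar features of Trf and Heph. Alternatives were filters, scalings, an offset, second terms, weights, each library left out and the authors' comparison. In the other lists, 2 genes were not analysed here, and 1 similar feature of Trf and 1 of the 6 within-library differences are not reported here. A replicate number shared by groups is no pairing in the labels.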

Additional observations from a re-analysis of the deposited data

How the results depend on the processing

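The 6 calls among the 10 iron genes (1 higher, 5 lower) became 3 with scaling by library size, all higher. These were Ftl1, called in both, with Trf and Fth1, and all 5 falls were lost. The number of calls stayed between 5 and 8 under all other settings and when 1 library was left out (5 to 8). All tested features gave 4330 calls, 2447 with library size scaling, 2258 with library type as a second term, 2355 in Qk-KO replicate 1 against WT, and 2370 to 5633 without 1 library (leaving out WT replicate 1 gave 2663, WT replicate 3 gave 2568 and Qk-KO replicate 2 gave 2370). The other iron genes gave 27 calls, and 14, 17 and 16 under the first 3 of these settings, with 19 to 35 without 1 library. With library size, changes turned to 0.50 (Tfrc), 0.21 (Slc40a1), 0.24 (Cp), 0.23 (Pcbp2), 0.035 (Mt1), 0.34 (Slc31a1), 0.26 (Lpcat3), 0.93 (Isca1), 0.02 (Steap2), 0.38 (Slc39a8), 0.63 (Slc39a14), 0.18 (Slc25a37), 0.64 (Ireb2) and 0.14 (Bmp6), beside a shift of the median of all features to 1.09. Library type as a second term and Qk-KO replicate 1 against WT give the same change by design. In both, Hfe turned to -0.23, Pcbp2 to 0.12, Abcb8 to -0.055, Aco1 to -0.019 and Ireb2 to 0.066. Hfe also turned to -0.06 without WT replicate 1 and to -0.27 without Qk-KO replicate 3, its range without 1 library being -0.27 to 0.18. In Qk-KO replicate 1 against WT, Fth1 minus Ftl1 turned to 0.41; the cause was not tested. Of 727 alternatives over 38 single genes, 26 reversed the direction and 84 lost a call (11 of them among those reversed). Another 24 gained a call with the direction kept. Not all are distinct: leaving out Qk-KO replicate 1 is the same fit as replicates 2 and 3 against WT. Library type as a second term repeats the change of replicate 1 alone. Ftl1 was also lost with no filter (adjusted p = 0.0652). With a replicate block, 4345 features, 7 of the 10 iron genes (Trf added, adjusted p = 0.017) and 26 other iron genes were called; Slc25a37 (0.055), Slc39a14 (0.0771) and Hps3 (0.0649) were not. Deviations of same-numbered libraries correlated at 0.10, 0.00 and 0.08. This was the best match for WT replicates 1 and 3, while WT replicate 2 correlated best with Qk-KO replicate 1 (0.02). These values are low and the labels give no pairing, so the numbers are not taken as pairs. Qk-KO replicates 2 and 3 against WT, and the sums with Gm20425 or with ferritin copies found by sequence, were added after seeing the data. The 4 shallower libraries limit Heph and Steap3 most.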
